A study of Rattus norvegicus with 6 samples.

Results

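Genes that recruit leukocytes or act in complement and inflammasomes were followed in neonatal rat ventricular myocytes (NRVMs) treated with human serum. The group is 5 genes, Ccl2, Cxcl1, Vcam1, C3 and Pycard, found by exact symbol in the deposited table of 3221 genes, and each has 1 entry. Ccl2, Cxcl1, Vcam1 and Pycard were lower with serum from children with dilated cardiomyopathy (DCM) than with serum from nonfailing (NF) children, and C3 was higher. These directions were known when the genes were chosen, and the table itself holds only genes that passed the authors' q threshold for this contrast. The serum ratios of these 5 genes are therefore described without a test.

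NRVMs are ventricular muscle cells of Sprague-Dawley rats, here 2 days after birth, and such primary cultures can also hold fibroblasts, vascular cells and leukocytes. RNA was sequenced in 3 NF and 3 DCM serum libraries, with a library of each serum from each of 3 NRVM preparations (A to C). RNA of 2 extractions was combined in each library. The labels give 1% serum for 72 hours, the paper's methods give a higher percentage and a range of times, and all cells were rat cells exposed to human serum. According to the labels, the NF libraries of preparations B and C share their serum donors, while the 3 DCM libraries do not. Serum donor and preparation therefore cannot be told apart when preparations are compared, except between the NF libraries of B and C. The ratios of B and C share NF serum donors, so the 3 preparations are not 3 independent comparisons of sera.

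Levels are in FPKM, counts of sequenced fragments corrected for transcript length and library size, which can be compared between genes. The read counts behind them are unknown. Every entry of the table has an authors' q under 0.1 and 1 direction in all 3 preparations (252 entries higher and 2969 lower with DCM serum), so agreement in direction comes with the table. The paper reports fewer genes at this threshold, more of them higher than lower, and the reason for the difference is not given. Over all its genes, DCM serum had a median log2 ratio to NF serum of -0.17 in preparation A, -0.40 in B and -0.25 in C. Of 13 cardiomyocyte markers, 2 are in the table, and Myl2, the ventricular myosin light chain, was at 9235 to 11358 FPKM with NF serum and 6628 to 11269 FPKM with DCM serum. Of 18 leukocyte markers none is in the table, so the leukocyte content of the cultures was not measured here.

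Chemokines are small secreted proteins that guide leukocytes along a gradient. Ccl2 attracts monocytes, and Cxcl1 attracts neutrophils. Vcam1 is a surface protein to which leukocyte integrins bind. C3 is the component on which all routes of complement activation converge, and Pycard (also called Asc) links inflammasome sensors to caspase-1. In many cell types NF-kB induces Ccl2, Cxcl1 and Vcam1, and C/EBP proteins induce C3 in liver and other cells.

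Promoter stretches are shown because NF-kB and C/EBP are factors known to act on several of these genes. They come from RefSeq (build GRCr8), which has promoter windows from 250 bases before to 50 bases after the start site for Cxcl1, Vcam1, C3 and Pycard, and Ccl2 was not matched. Ccl7 and C1r, whose values follow further on, are shown with them. Capitals mark a match to the NF-kB consensus in Cxcl1, Vcam1 and Ccl7, and to the C/EBP motif TTGCNNAA in C3 and C1r, on either strand.
Cxcl1, chr14:17479385-17479414, minus strand: ctgtgctccGGGAATTTCCCtggcctggag
Vcam1, chr2:206742857-206742886, minus strand: tccccttgaaGGGATTTCCCtccgcctctc
Ccl7, chr10:67514026-67514055, plus strand: tcattccaaaGGAAGATCCCgccctaactg
C3, chr9:2201425-2201454, minus strand: aggaaaccacgTTGCGAAAtctggggcagc
C1r, chr4:159098919-159098948, plus strand: tttttttttgtTTATGCAAatggttcattc
The match begins 84 bases before the start site in Cxcl1, 93 in Vcam1, 59 in Ccl7, 104 in C3 and 83 in C1r. In Cxcl1, 2 overlapping matches on opposite strands form the marked run, and in Vcam1 the same 10 bases match on both strands. The NF-kB consensus occurs in 7.51% of the 33469 promoter windows of this length and in 10.6% of the 2716 windows of genes in the table. The C/EBP motif occurs in 10.6% and 7.84%. The Pycard window and that of Icam1, a related gene described further on, hold neither motif, and a match in the other windows is a feature of the sequence and not a binding site that was measured.

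Ccl2 was the most abundant of the 5 genes in all 6 libraries. It was at 115, 33.8 and 67.3 FPKM with NF serum in preparations A, B and C, and at 83.7, 14.7 and 34.2 FPKM with DCM serum. The ranges of the sera overlapped. Preparation A was high with either serum, and its DCM library exceeded the NF libraries of B and C. The DCM library of C, at 34.2 FPKM, was also just above the NF library of B, at 33.8 FPKM. Within preparations the DCM level was 0.728, 0.436 and 0.508 of the NF level, a mean log2 ratio of -0.88 ± 0.38 (SD, n = 3 preparations). This was the 137th lowest mean log2 ratio of the 3221 genes. Against the table's own median in each preparation, the log2 ratios of Ccl2 were -0.29, -0.80 and -0.73.

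Cxcl1, the neutrophil chemokine, was lowest in preparation B with either serum, as Ccl2 was. With NF serum it was at 37.1, 25.8 and 37.7 FPKM in A, B and C, and with DCM serum at 31.0, 11.4 and 20.5 FPKM. Its DCM library of preparation A lay within the NF range, and those of B and C lay below it. The ratios were 0.836, 0.441 and 0.543, with a mean log2 ratio of -0.77 ± 0.47 (SD, n = 3). In preparation A the Cxcl1 log2 ratio was only -0.09 from the table's median, against -0.78 and -0.63 in B and C. Cxcl1 has close relatives in the rat genome, and how reads shared among them were assigned is not given in the sources used here.

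Vcam1, the leukocyte adhesion receptor, had low levels and the lowest mean ratio of the group. It was at 3.90, 6.90 and 12.2 FPKM with NF serum in preparations A, B and C, and at 2.65, 2.59 and 6.32 FPKM with DCM serum. The NF library of preparation A was below the DCM library of preparation C, so the sera overlapped. The ratios were 0.680, 0.375 and 0.518, with a mean log2 ratio of -0.97 ± 0.43 (SD, n = 3), the 82nd lowest of the table. Relative to the table's medians the log2 ratios were -0.39, -1.02 and -0.70.

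Pycard, the inflammasome adaptor, differed between preparations in the size of its serum ratio. It was at 9.89, 10.0 and 8.01 FPKM with NF serum and at 4.05, 3.91 and 7.45 FPKM with DCM serum. All 3 DCM libraries were below all 3 NF libraries, which was so for Pycard alone among the 4 lower genes of the group and for 25.7% of all genes of the table. The ratios were 0.410 and 0.391 in preparations A and B but 0.929 in preparation C, and the mean log2 ratio was -0.92 ± 0.70 (SD, n = 3). The SD of its 3 log2 ratios was the 3rd largest of the 3221 genes, whose median SD was 0.18. Without preparation C the mean log2 ratio was -1.32, and relative to the table's medians the Pycard ratio of preparation C was 0.14, above zero.

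C3, the central complement protein, was the member that was higher with DCM serum. It was at 0.662, 3.20 and 14.2 FPKM with NF serum in preparations A, B and C, and at 1.18, 5.01 and 24.4 FPKM with DCM serum. The levels of the preparations lay so far apart that the sera overlapped, and no gene of the group had its 3 DCM libraries all above its NF libraries, as 2.73% of the table did. Within preparations the ratios were nearly equal, 1.78, 1.57 and 1.71, with a mean log2 ratio of 0.75 ± 0.10 (SD, n = 3), the 49th highest of the table. Among the 252 higher genes the median of the mean log2 ratio was 0.34 and the median SD was 0.05. On the log2(FPKM + 1) scale, which shrinks low values, the C3 mean was 0.55.

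**Figure D1:**
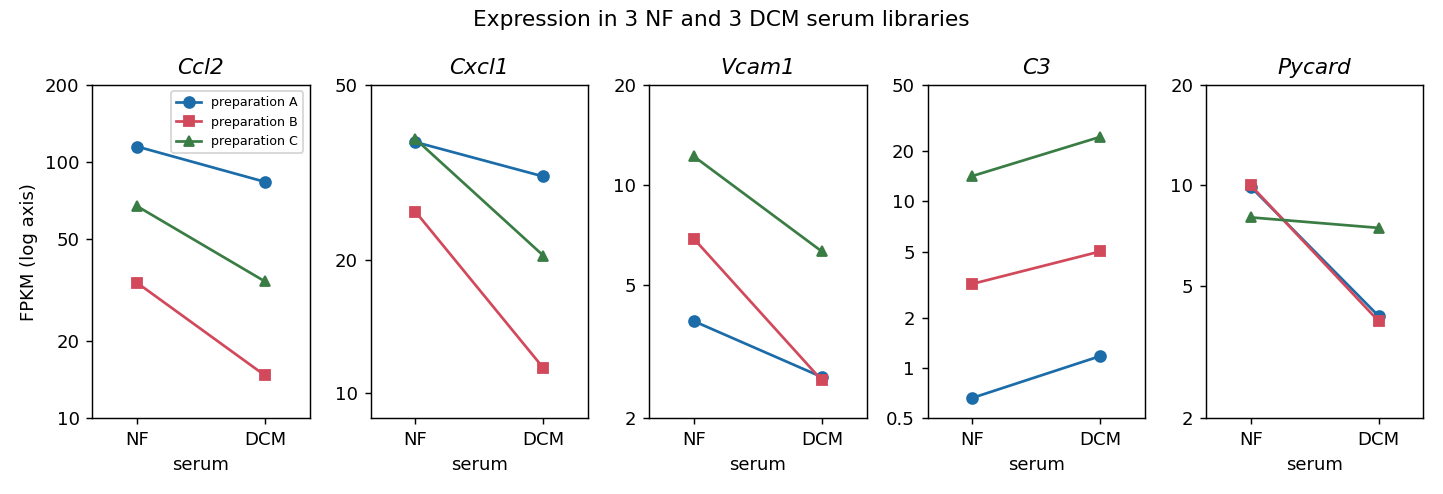
FPKM (log axis, own range for each gene) of Ccl2, Cxcl1, Vcam1, C3 and Pycard with NF and DCM serum, with a line joining the libraries of each NRVM preparation. Ccl2, Cxcl1, Vcam1 and Pycard slope down and C3 slopes up in all 3 preparations, with Pycard nearly level in preparation C (ratio 0.929) and the C3 lines far apart but parallel.

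The lower genes did not share 1 order of ratios over the preparations. For Ccl2, Cxcl1 and Vcam1 the DCM level was closest to NF in preparation A, at ratios of 0.728, 0.836 and 0.680, and lowest in preparation B, at 0.436, 0.441 and 0.375. Pycard was instead closest to NF in preparation C. Preparation B also had the lowest median ratio of the whole table. With all 3 preparations centred on those medians, the means were -0.61 for Ccl2, -0.50 for Cxcl1, -0.70 for Vcam1, -0.64 for Pycard and 1.02 for C3.

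**Figure D2:**
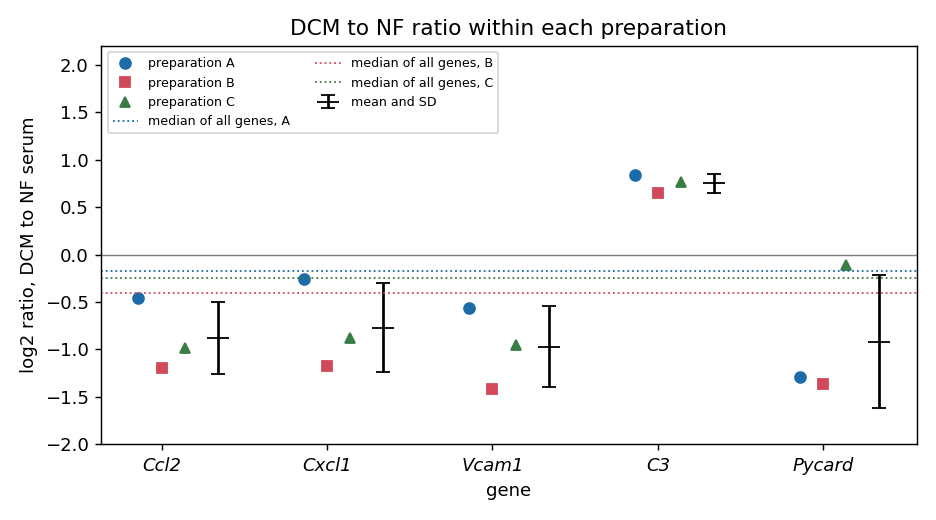
Log2 ratio of DCM to NF serum for each gene in preparations A, B and C (symbols), with the mean and SD over 3 preparations (black) and the median of all 3221 genes in each preparation (dotted lines). C3 lies between 0.65 and 0.84 while the 4 other genes lie below zero, and Pycard of preparation C (-0.11) is the only value of those 4 genes above its preparation's dotted line (-0.25).

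The spread of a gene among NF libraries was not used to choose the genes, and it was widest for C3. The highest NF library of C3 was 21.5-fold above the lowest, the largest such fold of the 3221 genes, ahead of Scin at 17.7-fold and Kirrel2 at 13.0-fold, while the median over all genes was 1.36-fold. With DCM serum the C3 libraries likewise spanned 20.6-fold. Between the NF libraries of B and C, which share serum donors, C3 still differed 4.45-fold. The lowest of these levels, 0.662 FPKM in preparation A, is the value with the least precision, since read counts are unknown.

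Ccl2 and Vcam1 had NF spreads of 3.40-fold and 3.12-fold, places 92 and 117 of 3221 from the largest. Ccl2 was highest in preparation A, and Vcam1 and C3 were highest in preparation C. Cxcl1 spanned 1.46-fold and Pycard 1.25-fold, near the table's median. When the variance of the 6 log2 levels was divided, preparation held 95.8% for C3, 77.8% for Ccl2, 58.2% for Vcam1, 47.8% for Cxcl1 and 6.26% for Pycard, with a table median of 52.3%. Serum held 67.3% for Pycard and 4.20% for C3, with a table median of 36.6%. The rest, in which preparations differ in their serum ratio, was 26.4% for Pycard, with a table median of 6.97%.

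**Figure D3:**
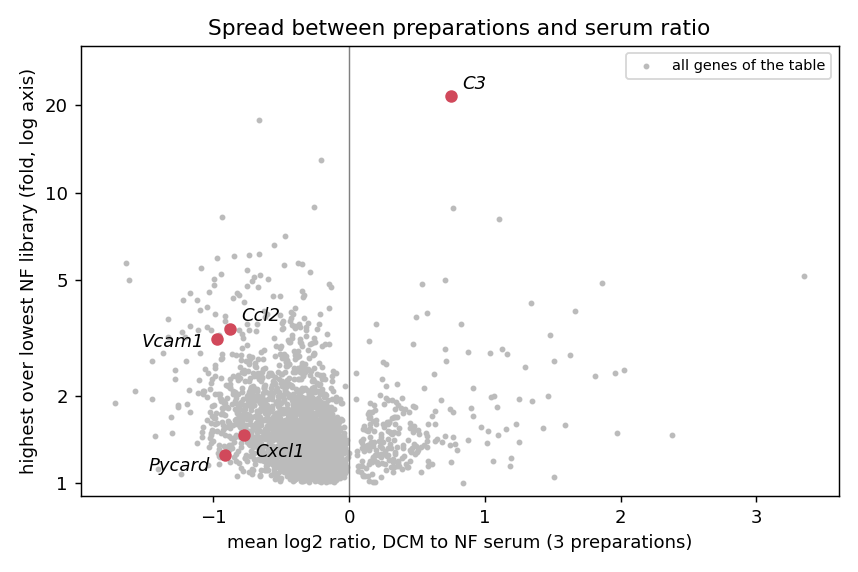
Each point is a gene of the table, with its DCM to NF mean log2 ratio on the x axis and the fold between its highest and lowest NF library on the y axis (log axis), and the 5 genes are in red. C3 has the largest fold of all genes (21.5), Ccl2 (3.40) and Vcam1 (3.12) lie above most genes, and Cxcl1 (1.46) and Pycard (1.25) lie among them.

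In the NF libraries of A and B the order of levels was Ccl2, Cxcl1, Pycard, Vcam1 and C3. In the NF library of preparation C, C3 and Vcam1 were above Pycard. With DCM serum C3 of preparation C, at 24.4 FPKM, exceeded Cxcl1 at 20.5 FPKM. The NF ranges of Pycard, Vcam1 and C3 overlapped, as did those of Ccl2 and Cxcl1, while the NF range of neither chemokine overlapped that of the other 3 genes.

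Genes listed as markers of other cells also varied among these libraries. The summed level of the fibroblast markers Postn and Lum, the 2 of 12 listed that are in the table, was 22.5, 13.8 and 64.0 FPKM with NF serum in A, B and C, and 21.5, 10.3 and 38.0 FPKM with DCM serum. It was highest in preparation C, as Vcam1 and C3 were. The sum was lowest in B, however, while Vcam1 and C3 with NF serum were lowest in A. With DCM serum it was lower in each preparation, whereas C3 was higher. The summed level of the endothelial markers Pecam1 and Egfl7, 2 of 13 listed, was 4.46, 2.75 and 4.02 FPKM with NF serum and 6.04, 3.79 and 5.60 FPKM with DCM serum, lowest in preparation B as Ccl2 and Cxcl1 were. This endothelial sum was higher with DCM serum in each preparation, whereas Ccl2 and Cxcl1 were lower. Tagln and Abcc9, 2 of 10 genes listed for smooth muscle and pericytes, summed to 134 to 198 FPKM with NF serum and 86.5 to 148 FPKM with DCM serum. Whether the myocytes themselves expressed these 2 genes was not tested. The part of the other cell types in the levels of the 5 genes was not tested either. In bulk RNA fewer cells of a type and less RNA per cell cannot be told apart.

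Related genes were read from 8 lists with 263 distinct genes, of which 32 are in the table, and they were compared with limma on log2(FPKM + 1) with the preparation as a block (Benjamini-Hochberg adjusted p under 0.10 over the table). Of these 32, 3 rose, 17 fell and 12 did not pass, with a median log2 ratio of -0.27 against -0.29 for all genes of the table. Among all 3221 genes 6.24% rose and 61.6% fell in this fit. Since the table was chosen on the same contrast, these counts are a description. So are the adjusted p-values and calls of single genes that follow, also those with a preparation left out, and they are not independent support. The 5 genes themselves are not in the counts. Without the block the same limma test called none of the 32 and 4 of 3221 genes. At an unadjusted p under 0.05 it gave 7 of the 32 and 533 of the 3221. Without preparation A, B or C, 10, 2 and 5 of the 32 fell and 3 rose each time.

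Of 35 other chemokine ligands, Ccl7 alone is in the table, and no chemokine receptor of 24 listed is. Ccl7, which attracts monocytes as Ccl2 does and is its neighbor among protein-coding genes in RefSeq, was at 26.1, 9.76 and 27.2 FPKM with NF serum and at 22.7, 5.91 and 19.0 FPKM with DCM serum. As for Ccl2, preparation B was the lowest with either serum and had the lowest ratio, 0.605. Ccl7 fell with a mean log2 ratio of -0.48 ± 0.26 (SD, n = 3, limma adjusted p = 0.0442 with the block and 0.542 without it), but not when preparation B or C was left out or when ratios were centred on the table's medians. Over the 6 libraries the log2 levels of Ccl7 and Ccl2 had a Pearson correlation of 0.903, a description that includes the shared preparations and sera. By correlation with Ccl2, Ccl7 was only at place 427 among all genes of the table.

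Of 27 other complement components, C1r, Masp1 and Colec12 are in the table. C1r, a protease of the classical pathway that acts upstream of C3, was at 25.6, 26.1 and 73.6 FPKM with NF serum and at 45.3, 41.6 and 112 FPKM with DCM serum. It was highest in preparation C with either serum, as C3 was, and it rose by a mean log2 ratio of 0.70 ± 0.11 (SD, n = 3, limma adjusted p = 0.0179 with the block and 0.398 without it). The call was kept without preparation A, B or C and with centred ratios. The log2 levels of C1r and C3 had a Pearson correlation of 0.836 over the 6 libraries. Masp1, a protease of the lectin pathway, had a mean log2 ratio of -0.43 ± 0.33, and Colec12, a scavenger receptor with a collectin domain, had -0.42 ± 0.41. These ratios passed the limma fit with the block, but neither Masp1 nor Colec12 passed when ratios were centred or preparation B was left out. Masp1 also did not pass without preparation A, nor Colec12 without C or with a pseudocount of 0.1. The complement list thus held genes in either direction.

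**Figure D4:**
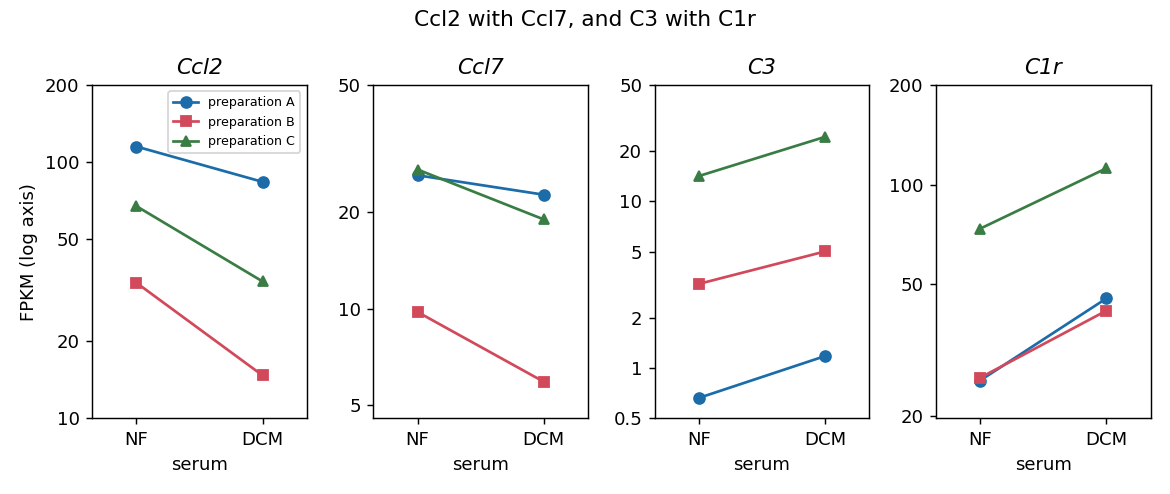
FPKM (log axis) of Ccl2 beside Ccl7 and of C3 beside C1r with NF and DCM serum, with a line joining the libraries of each preparation. Preparation B is lowest for Ccl2 and Ccl7 with either serum, and preparation C is highest for C3 and C1r.

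Complement regulators were represented by Clu and Cd59, 2 of 18 listed. Clu (clusterin), which restrains the terminal complex, was at 1086, 1050 and 1700 FPKM with NF serum and at 848, 553 and 1447 FPKM with DCM serum. It fell by a mean log2 ratio of -0.50 ± 0.37 (limma adjusted p = 0.0565 with the block). Cd59, which blocks the membrane attack complex, had -0.32 ± 0.14. Neither Clu nor Cd59 passed with centred ratios or without preparation B. Clu also did not pass without preparation A, nor Cd59 without C.

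Of 32 other leukocyte adhesion genes 7 are in the table, of which 2 rose and 3 fell. Icam1, which binds leukocyte integrins as Vcam1 does and is also induced by NF-kB, was at 31.0, 20.3 and 28.4 FPKM with NF serum and at 22.8, 16.7 and 27.7 FPKM with DCM serum. Its mean log2 ratio was -0.25 ± 0.20 (limma adjusted p = 0.0873 with the block), against -0.97 for Vcam1, and it did not pass whichever preparation was left out, nor with a pseudocount of 0.1. Mcam, an adhesion protein of vascular cells, had -0.42 ± 0.37 and F11r, a junctional protein, had -0.26 ± 0.13, and both fell, but not with centred ratios or without preparation B or C. F11r did not pass without preparation A either. Cd44 and Selplg, which bind hyaluronan and selectins, did not pass. Pecam1, the endothelial junction protein that leukocytes pass, was at 2.06, 1.51 and 2.19 FPKM with NF serum and at 2.98, 2.34 and 3.22 FPKM with DCM serum. Pecam1 rose by 0.57 ± 0.05 (limma adjusted p = 0.0296 with the block) and Itga9, an integrin chain that binds Vcam1, rose by 0.44 ± 0.06 (adjusted p = 0.0307). Both also rose without preparation A, B or C and with centred ratios, so the ratios of Vcam1 and Itga9 had opposite signs.

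Of 35 other inflammasome and cell death genes, Nlrx1, Panx1 and Ripk3 are in the table, with mean log2 ratios from -0.27 to -0.24. Nlrx1, a mitochondrial NOD-like receptor, and Ripk3, a kinase of necroptosis, fell, and Panx1, a membrane channel, did not pass. Nlrx1 and Ripk3 did not pass with centred ratios or without preparation A, B or C. Each of these ratios is close to the table's median of -0.29, whereas Pycard had -0.92.

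Of 60 genes of NF-kB and innate signaling 11 are in the table, of which none rose and 4 fell. Map3k8, a kinase activated by inflammatory receptors, was at 1.64, 2.22 and 2.44 FPKM with NF serum and at 0.856, 0.840 and 1.73 FPKM with DCM serum. Map3k8 fell by a mean log2 ratio of -0.95 ± 0.46 (limma adjusted p = 0.0354 with the block), also with centred ratios and without preparation A, B or C. Map3k14, the kinase of the noncanonical NF-kB route, had -0.57 ± 0.34 and fell, but not with centred ratios or without preparation B or C. The NF-kB subunits Nfkb1 and Rela had -0.12 ± 0.08 and -0.09 ± 0.07 and did not pass. Of 34 cytokine and JAK-STAT genes 5 are in the table, of which none rose and 3 fell, beside the same shares over the table. Their median log2 ratio was -0.44. Stat5a, a transcription factor of cytokine receptors, had -0.68 ± 0.47 and Socs2, an inhibitor of cytokine signaling, had -0.44 ± 0.34. Both fell, but neither passed with centred ratios or without preparation B. Stat5a also did not pass without preparation C, nor Socs2 without A.

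**Figure D5:**
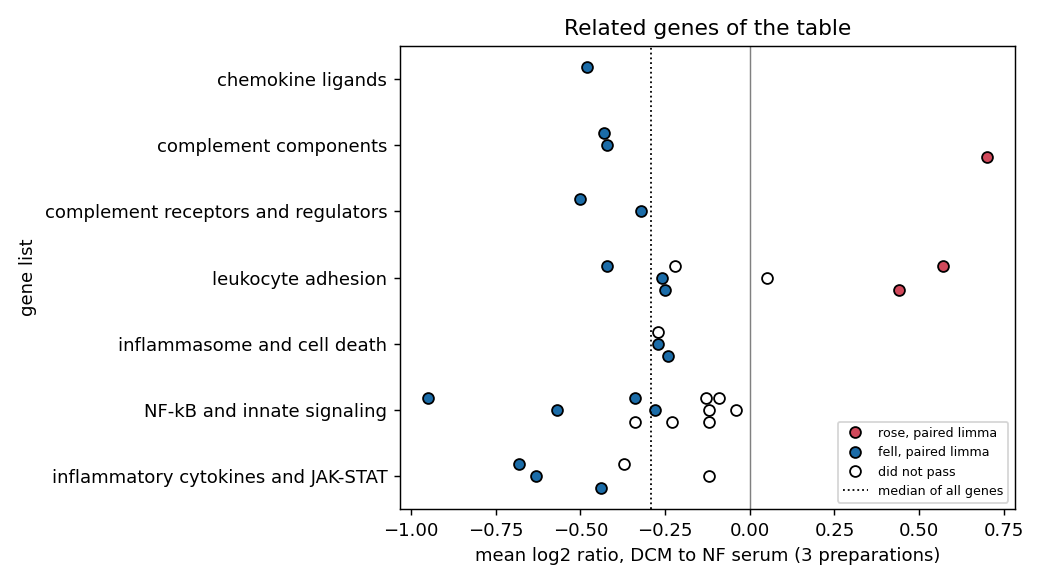
Mean log2 ratio (DCM over NF serum) of the related genes in the table, by list, with red for genes that rose, blue for genes that fell and white for genes that did not pass the limma fit with preparation as a block (points of a list are shifted vertically to separate them). The genes above zero are C1r (0.70), Pecam1 (0.57), Itga9 (0.44) and Selplg (0.05), and the others lie below zero around the table's median (-0.29, dotted).

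The genes whose 6 log2 levels were most like those of a member were found by Pearson correlation, as a description over 6 libraries that share preparations and sera. Closest to Ccl2 were Map3k12 and Tubb5 (both 0.998), and 439 genes had a correlation above 0.9 with it. Closest to Cxcl1 were Larp7 (0.997) and Apeh (0.996), and closest to Vcam1 were Scara3 (0.995) and Copg2 (0.995). Pycard was close to Ptp4a3 (0.984), which shared its high DCM library of preparation C. C3 had few neighbors, with Cav2 (0.969) and Kirrel2 (0.957) first and 15 genes above 0.9. Among the members themselves, Ccl2 and Cxcl1 had a correlation of 0.934, and Ccl2 and Vcam1 had 0.14.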

How the data were processed

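The authors sequenced RNA of serum-treated NRVMs, aligned the directional reads to Rnor_5.0 with GSNAP and computed FPKM values with Cufflinks (versions not given in the sources used here). They removed genes of low variance and deposited 1 table. Other deposited columns hold the authors' own comparison: a signed fold change for each pair of libraries, an overall fold ratio, p-values and q-values. They were read only to check what they hold. In all 3221 genes the signed values match the quotient of the paired FPKM columns, and each q-value is under 0.1. No FPKM value was 0. The paper gives an average of mapped reads per sample, but without counts the depth of each library and the counting error are unknown.

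The 5 genes, the lists and the motifs were chosen with earlier results of these data, or the promoter sequences, known. Named genes were the 5 genes, up to 4 per list with the largest change, the 2 most like each of the 5, the cell type markers in the table, and further list members chosen after their values were seen. Of the table's symbols, 2961 matched a RefSeq symbol or synonym, and lists were matched by these. Values of a few single genes are not reported here.

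Gene effects are means of log2 FPKM ratios over 3 preparations. Calls came from limma 3.58.1 in R 4.3.3 on log2(FPKM + 1), tested on simulated data, and tables from Python 3.11 with pandas 2.3.3. The authors' fold change columns tie each DCM library to 1 NF library, which gives the block. Deviations of paired libraries from group means had correlations of 0.873, 0.743 and 0.741. Separate cultures are given by preparation, while the NF libraries of B and C share serum donors. Alternatives were no block, another pseudocount, a minimum mean FPKM of 1, median-centred ratios, ratios of group means and omission of each preparation.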

Additional observations from a re-analysis of the deposited data

How the results depend on the processing

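The means of Ccl2, Cxcl1, Vcam1 and Pycard moved by less than their SD over preparations under every alternative run. Their SDs were 0.38 to 0.70, against 0.10 for C3. Leaving out 1 of 3 preparations cannot move a mean by as much as its SD, so that outcome was fixed in advance. No mean of the 5 genes changed sign, but with 1 direction in all 3 preparations only centring could have changed a sign. The single Pycard ratio of preparation C did change sign when centred, from -0.11 to 0.14. C3 moved from 0.75 to 0.55 on the log2(FPKM + 1) scale and to 1.02 with centred ratios. With 1 preparation left out, means ranged from -1.09 to -0.72 for Ccl2, -1.03 to -0.57 for Cxcl1, -1.18 to -0.75 for Vcam1, -1.32 to -0.70 for Pycard and 0.71 to 0.80 for C3. Over the table, the limma fit with the replicate block called 201 genes higher and 1984 lower. Without the block it called 3 and 1, and with centred ratios 252 and 344. With 1 preparation left out it called 97 to 140 higher and 461 to 1164 lower. Of the 32 related genes, 3 rose and 17 fell with the block, 0 and 0 without it, and 2 fell with centred ratios (4 rose). With 1 preparation left out, 3 rose each time and 2 to 10 fell. The cause of these shifts was not tested.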
